A study of Mus musculus with 3 samples.

Results

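The genes described here are 10 members of the neuregulin and EGF receptor pathway, together with the sites bound by the forkhead transcription factor Foxf2 that lie nearest to them. The ligand genes are Nrg1, Nrg3, Egf, Hbegf, Areg and Tgfa, and the receptor genes are Egfr, Erbb2, Erbb3 and Erbb4. A peak was given to a gene when its midpoint was nearer to a transcription start site of that gene than to a start site of any other protein-coding gene. By this rule 37 of the 25704 peaks on assembled chromosomes belonged to the 10 genes. Of the 10 genes, 6 had at least 1 peak and 4 (Hbegf, Areg, Erbb2 and Erbb3) had no peak. Across all 21938 protein-coding genes, 37.3% had a peak.

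The peaks came from ChIP-seq with an anti-FLAG antibody on tongues of mouse embryos at E12.5, homozygous for endogenous Foxf2 tagged with 3xFLAG by CRISPR/Cas9 editing (Foxf2FLAG/FLAG). There were 2 FLAG ChIP libraries and 1 input library of unprecipitated chromatin, all from tagged embryos, and the labels of each give 75 tongues. The data were 1 peak table for the series, with a position, a caller score and a focus ratio for each peak and no value for a single library. Nothing below therefore carries a replicate error or a test over samples, the depth is unknown, and genes and peaks are not replicates. The tissue was the whole tongue, so the cell type in which a site was bound is not known, and no FLAG ChIP from untagged embryos was analysed here.

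Ligands of the EGF family are made as membrane-anchored proteins, are released by cleavage, and bind receptor tyrosine kinases of the ErbB family, which then pair and signal through the Ras-ERK and PI3K-AKT pathways. Egf, Tgfa, Areg and Hbegf bind the EGF receptor, and Hbegf also binds Erbb4. Neuregulins bind Erbb3 and Erbb4, while Erbb2 has no known ligand of its own and acts as the preferred partner of the others. The pathway takes part in the growth of epithelia, in the development of Schwann cells along nerves and in the patterning of taste papillae on the tongue.

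Nrg1 carried the most peaks of the 10 genes and the 2 highest-scored single peaks, while the median score was highest at Egfr (23.1 over 3 peaks, compared with 15.8 over the 17 of Nrg1). Nrg1 had 17 peaks, Erbb4 had 8, Nrg3 had 5, Tgfa and Egfr had 3 each and Egf had 1. Sites of Nrg1 thus made up 45.9% of the 37. Nrg1, Nrg3 and Erbb4, which each span about a megabase, together held 86% of the territory of the 10 genes (the bases nearer to a gene's start sites than to those of any other protein-coding gene) and 30 of the 37 peaks. Per 100 kb of territory, Tgfa had 2.14 peaks, Egfr 1.35, Nrg1 1.09, Egf 0.663, Erbb4 0.625 and Nrg3 0.269, beside an autosomal mean of 1.03. The 10 genes as a group had 0.678 peaks per 100 kb.

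**Figure D1:**
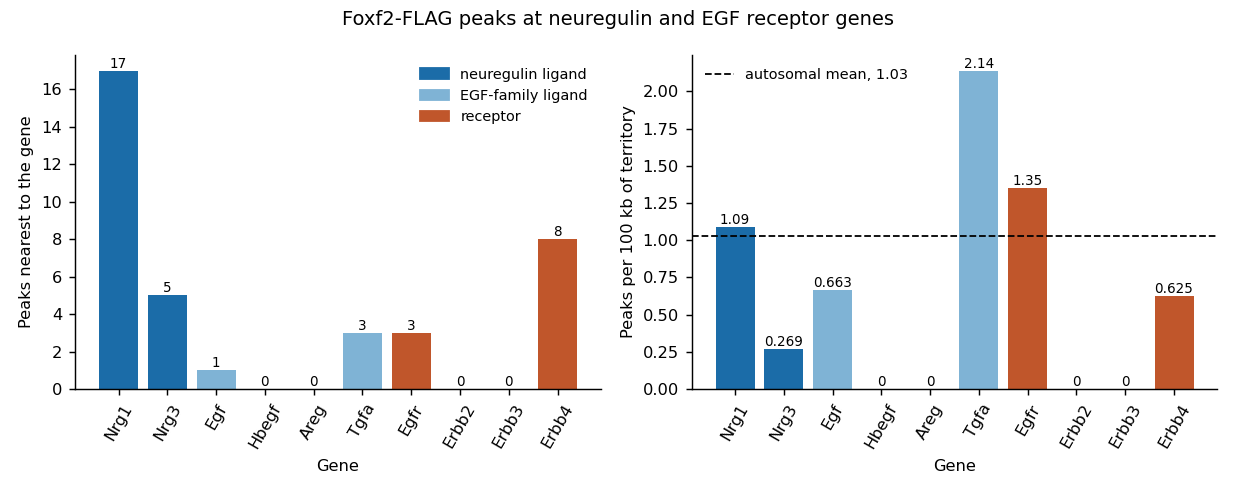
Number of Foxf2-FLAG peaks nearest to each of the 10 genes (left) and peaks per 100 kb of territory (right), coloured by role, with the autosomal mean as a dashed line. Nrg1 leads by count with 17, whereas Tgfa (2.14) and Egfr (1.35), with 3 peaks each, lead by density. Egf (0.663), Erbb4 (0.625) and Nrg3 (0.269) lie below the mean, as do the 4 genes without a peak.

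The counts were also set beside those of genes of like territory. Nrg1, Nrg3 and Erbb4 lie in the longest decile of territory, where 81.5% of 2194 genes had a peak and the median was 4 peaks. In that decile 6.29% of the genes had at least as many peaks as Nrg1, 26.7% at least as many as Erbb4 and 43.5% at least as many as Nrg3. For Tgfa, 18% of the genes in its decile had at least as many peaks, and for Egfr 39.4%. Of the genes without a peak, Hbegf, Erbb3 and Erbb2 lie in deciles where 25.2%, 21.1% and 14.1% of genes had one, while the share was 72.7% in the decile of Areg. Averaged over the deciles of the 10 genes, 58% of genes of like territory had a peak, close to the 60% seen.

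Nrg1 encodes neuregulin 1, the ligand on axons and in mesenchyme that signals through Erbb3 and Erbb4. The gene (ENSMUSG00000062991.7) runs from 31814551 to 32884029 on the minus strand of chromosome 8 in mm10, a span of 1069.5 kb with 9 basic transcripts and 7 start sites. All 17 of its peaks lay in introns. In its longest basic coding transcript, which has 12 introns, 15 peaks lay in the first intron (915.3 kb long), 1 in intron 2 and 1 in intron 5. Of the 17, 14 lay between the most upstream start site (position 32884029) and the next one at 32009451, a stretch of 874.6 kb with 1.60 peaks per 100 kb. The remaining 3 lay further downstream.

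Of the 17 Nrg1 peaks, 9 were gathered in the middle of that first intron, and the others were spread more widely along the gene. A run of 9 peaks with no gap over 60 kb stretched from 32290339 to 32424859, or 134.5 kb, at 6.69 peaks per 100 kb. This run was picked out after its positions were seen. Of the 25704 peaks, 1051 (4.09%) opened a stretch of the same length with at least 9 peaks. The run held the highest-scored peaks of Nrg1, at 52.7 (rank 1222 of the 25707 deposited peaks, 32379325 to 32379537) and 49.6 (rank 1437, 32419473 to 32419685). Of its 9 peaks, 5 held a forkhead core, compared with 72.5% of all peaks. The third strongest Nrg1 peak stood apart, 79.9 kb upstream of the start site at 32009451, with a score of 42.7 (rank 2077; 32089268 to 32089480). The peak nearest to an Nrg1 start site was weak, with a score of 12.9, and lay 4.57 kb downstream of it (32004433 to 32004645).

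The sequences of these Nrg1 sites are shown because they include the highest scores at the 10 genes. Each line gives the central 200 bp of a peak on the plus strand of mm10, with capitals for the forkhead core on either strand. The core was searched in the form ATAAACA, in the form ATAAATA, in the form GTAAACA and in the form GTAAATA. On the minus strand the form ATAAACA reads as TGTTTAT, and the form GTAAACA reads as TGTTTAC. The first 3 are the highest-scored, the line at 32 is the highest-scored without a core and the line at 18.7 holds the most cores.
Nrg1, score 52.7, chr8:32379332-32379531: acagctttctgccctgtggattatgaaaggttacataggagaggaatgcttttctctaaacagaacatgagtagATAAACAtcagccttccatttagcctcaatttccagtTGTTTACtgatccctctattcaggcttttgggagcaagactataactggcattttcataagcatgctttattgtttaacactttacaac
Nrg1, score 49.6, chr8:32419480-32419679: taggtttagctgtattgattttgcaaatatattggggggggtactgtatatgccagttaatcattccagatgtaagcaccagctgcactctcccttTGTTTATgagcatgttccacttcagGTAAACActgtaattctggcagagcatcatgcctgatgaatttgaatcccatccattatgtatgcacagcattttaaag
Nrg1, score 42.7, chr8:32089275-32089474: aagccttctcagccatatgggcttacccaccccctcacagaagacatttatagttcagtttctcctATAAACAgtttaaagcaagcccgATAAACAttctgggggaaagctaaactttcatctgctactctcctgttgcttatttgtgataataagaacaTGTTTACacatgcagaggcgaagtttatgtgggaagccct
Nrg1, score 32.0, chr8:32349126-32349325: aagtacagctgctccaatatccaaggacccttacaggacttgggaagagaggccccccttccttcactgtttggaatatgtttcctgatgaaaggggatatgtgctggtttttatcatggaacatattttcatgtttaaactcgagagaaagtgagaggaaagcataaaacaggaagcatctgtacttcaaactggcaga
Nrg1, score 18.7, chr8:31890151-31890350: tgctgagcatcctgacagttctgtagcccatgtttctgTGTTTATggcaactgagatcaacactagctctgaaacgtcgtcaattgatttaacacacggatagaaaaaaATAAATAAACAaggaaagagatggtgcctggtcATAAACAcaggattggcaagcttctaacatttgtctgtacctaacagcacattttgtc

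Each of the 3 strongest Nrg1 peaks held both ATAAACA and GTAAACA. In the peak at 52.7 the plus-strand ATAAACA was centred 22 bp before the peak centre and a minus-strand GTAAACA 15 bp after it. In the peak at 49.6 a minus-strand ATAAACA sat on the centre itself and a plus-strand GTAAACA 25 bp after it. The peak at 42.7 held ATAAACA centred 30 bp and 7 bp before its centre and GTAAACA 64 bp after it. Both forms together occurred in 5 of the 17 Nrg1 peaks and in 6 of the 37 peaks at the 10 genes (16.2%), compared with 4.71% of all peaks. The pairing was counted after it had been seen in these peaks, which include the 3 strongest, and was not tested. The peak in intron 5, with a score of 18.7, held 4 cores, of which a pair overlapped in the run ATAAATAAACA.

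Nrg3 encodes a neuregulin that binds Erbb4 and is known mostly from the nervous system. It runs from 38368952 to 39473088 on the minus strand of chromosome 14 (ENSMUSG00000041014.17; 1104.1 kb), nearly the length of Nrg1, but its peaks were fewer and weaker. Its 5 peaks scored 12.8, 11.9, 11.9, 11.4 and 10.2, all among the lowest-ranked part of the list (ranks 18245 to 25071). Of the 17 Nrg1 peaks, all but the one at 12.4 scored above the highest of them. They lay in introns 1, 2 and 4, between 345.4 and 1038.4 kb downstream of the nearest start site, and the one at 10.2 also lay in an intron of the antisense gene Nrg3os. No Nrg3 peak was nearer than 63.57 kb to another peak. The median Nrg1 peak had a neighbour at 5.17 kb, compared with 17.1 kb for all peaks. All 5 Nrg3 peaks held a forkhead core, compared with 72.5% of all peaks.

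Of the ligands of the EGF receptor, Tgfa and Egf had peaks. Tgfa, which encodes transforming growth factor alpha, runs from 86195223 to 86275719 on the plus strand of chromosome 6 (ENSMUSG00000029999.14). Its 3 peaks lay in introns 1 and 2, at 2.54, 14.66 and 38.85 kb downstream of its only basic start site, with scores of 12.2, 11.4 and 13.7. The first of these was the peak nearest to a start site among all 37. Each Tgfa peak held 1 forkhead core, at 25, 12 and 4 bp from the peak centre, while 72.5% of all peaks held at least 1. The single peak of Egf, with a score of 12.8 (129634564 to 129634776 on chromosome 3), lay outside the gene, which runs from 129677565 to 129755316 on the minus strand (ENSMUSG00000028017.7). It was 90.41 kb downstream of the nearest Egf start site and fell in the 3' untranslated region of the neighbouring gene Elovl6, a fatty acid elongase. Its core read GTAAACA, 15 bp from the peak centre, and is shown here with 10 bases to either side.
Egf, score 12.8, chr3:129634642-129634668: ctgatttgggGTAAACActgtgtttct

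Hbegf and Areg had no peak. Hbegf, a ligand of both Egfr and Erbb4, runs from 36504927 to 36515805 on chromosome 18 (minus strand, ENSMUSG00000024486.6). The nearest peak lay 95 kb downstream of its start site, and was a strong one: with a score of 85.8 (rank 275) it outscored every peak of the 10 genes. It lay in an intron of Pfdn1, a chaperone subunit gene, 33.71 kb from a Pfdn1 start site, and so was counted there. Areg, which encodes amphiregulin, runs from 91139599 to 91148432 on chromosome 5 (plus strand, ENSMUSG00000029378.5), beside the related ligand genes Epgn, Ereg and Btc. The nearest peak, with a score of 41.4 (rank 2223), lay 91.4 kb upstream of Areg and 20.73 kb from the start of Epgn, which encodes epigen. That was the only peak given to any of Areg, Epgn, Ereg and Btc.

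Among the receptors, Egfr and Erbb4 had peaks while Erbb2 and Erbb3 had none. Egfr, the receptor for Egf, Tgfa, Areg and Hbegf, runs from 16752203 to 16918158 on the plus strand of chromosome 11 (ENSMUSG00000020122.16). Its strongest peak scored 45.1 (rank 1814; 16663880 to 16664092) and lay in intergenic sequence 88.2 kb upstream of the start site. A weaker peak at 12.6 lay 3.25 kb from it, 91.5 kb upstream of the gene. The third, at 23.1, lay in the first intron, 91.8 kb downstream of the start site. The peak at 45.1 ranked behind only the top pair of Nrg1 among the 37. All 3 Egfr peaks held a forkhead core, compared with 72.5% of all peaks.

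Erbb4, a neuregulin receptor, runs from 68032186 to 69108059 on the minus strand of chromosome 1 (ENSMUSG00000062209.15; 1075.9 kb). Its 8 peaks scored between 10.7 and 21.3, with a median of 14.05. The highest, at 21.3 (rank 8184; 69319655 to 69319867), was the only one outside the gene, 211.7 kb upstream. The other 7 were in introns, from 319.96 to 847.65 kb downstream of the nearest start site, and none lay beyond intron 16 of 26. The forkhead core was present in 6 of the 8, compared with 72.5% of all peaks. The 2 without it, at 13.9 and 13.1, lay in introns 2 and 13, and the site at 13.1 held 3 copies of the E-box CATCTG.

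Erbb2 and Erbb3 are short genes in gene-dense regions, with territories of 19.2 and 30.4 kb. Erbb2 runs from 98412470 to 98437716 on chromosome 11 (plus strand, ENSMUSG00000062312.5), and its nearest peak, at a score of 10.5, lay 92.7 kb downstream in an intron of Ikzf3. Erbb3 runs from 128567523 to 128589652 on chromosome 10 (minus strand, ENSMUSG00000018166.8). Its nearest peak scored 17.4 and lay 90.5 kb downstream at the Myl6b promoter, and on the other side a peak at 44.4 (rank 1884) lay 107 kb upstream, at the promoter of Rab5b.

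**Figure D2:**
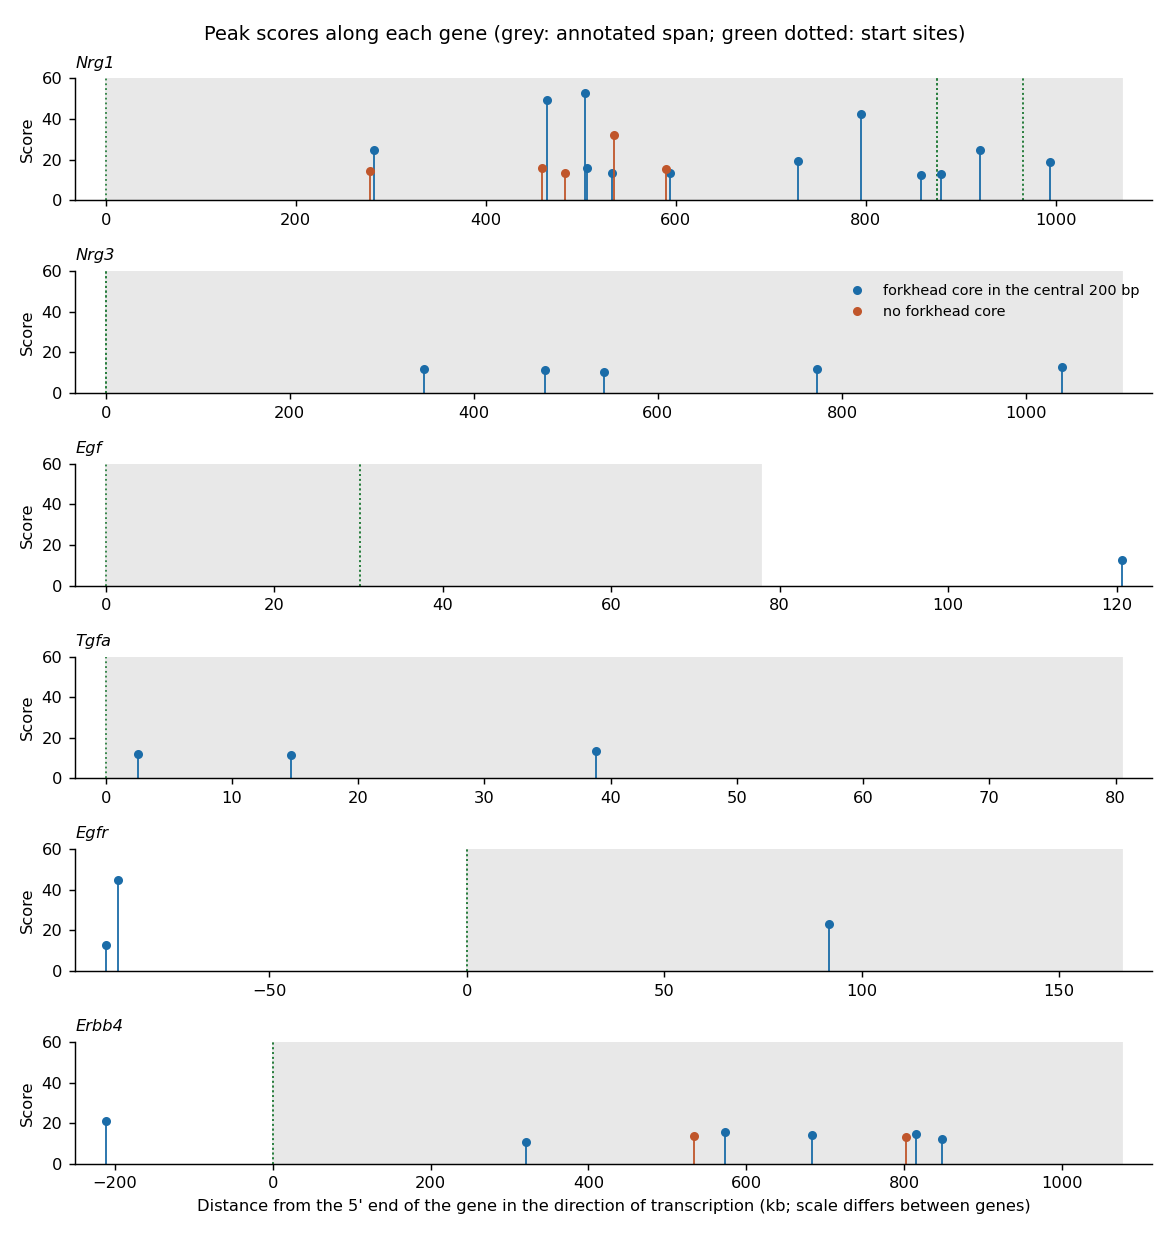
Caller score of each of the 37 peaks against its distance in kb from the 5' end of the gene, in the direction of transcription, with 1 panel for each of the 6 genes with a peak and its own distance scale. Nrg1 holds a run of peaks in the middle of its first intron with scores up to 52.7, Nrg3 peaks stay at or below 12.8, and the strongest Egfr peak (45.1) lies 88.2 kb upstream.

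The strongest site of each of the other receptors and ligands is shown in the same way, with a second, intronic site of Erbb4, to let their cores be set against those of Nrg1.
Nrg3, score 12.8, chr14:38434285-38434484: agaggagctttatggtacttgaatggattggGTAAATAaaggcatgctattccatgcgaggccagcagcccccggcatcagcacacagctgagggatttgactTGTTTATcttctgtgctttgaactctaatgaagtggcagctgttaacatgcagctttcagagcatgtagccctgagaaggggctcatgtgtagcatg
Tgfa, score 13.7, chr6:86233977-86234176: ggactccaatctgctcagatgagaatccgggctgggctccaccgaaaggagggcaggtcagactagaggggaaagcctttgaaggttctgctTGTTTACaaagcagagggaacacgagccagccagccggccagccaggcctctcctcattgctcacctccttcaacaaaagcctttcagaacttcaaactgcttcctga
Egfr, score 45.1, chr11:16663887-16664086: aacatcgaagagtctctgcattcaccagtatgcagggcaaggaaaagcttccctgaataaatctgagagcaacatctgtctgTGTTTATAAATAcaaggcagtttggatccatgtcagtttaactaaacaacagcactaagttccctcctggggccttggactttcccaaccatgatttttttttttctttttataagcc
Erbb4, score 21.3, chr1:69319662-69319861: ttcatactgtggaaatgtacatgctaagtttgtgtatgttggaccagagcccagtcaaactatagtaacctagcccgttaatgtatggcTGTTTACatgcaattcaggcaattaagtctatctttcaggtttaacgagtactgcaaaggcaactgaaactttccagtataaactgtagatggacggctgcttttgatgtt
Erbb4, score 15.8, chr1:68535451-68535650: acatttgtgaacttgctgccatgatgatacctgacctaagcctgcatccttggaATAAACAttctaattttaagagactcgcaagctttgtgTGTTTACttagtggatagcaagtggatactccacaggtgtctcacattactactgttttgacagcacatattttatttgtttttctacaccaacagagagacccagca

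In the Egfr site the capitals run on because a minus-strand ATAAACA and a plus-strand ATAAATA overlap. The strongest sites of Tgfa and Erbb4 each held a single GTAAACA, centred 4 and 7 bp before the peak centre. In the Nrg3 site an ATAAACA lay 7 bp from the centre and a GTAAATA 65 bp before it.

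None of the 37 peaks lay in a promoter, which was set to reach from 1000 bp before a start site to 100 bp past it. A count of 0 of 37 allows a share of up to 8.11% by the limit of 3 counts, and up to 9.49% by the exact 95% interval. The share of all peaks, 8.52%, lies between these limits, so whether the share at the 10 genes was lower depends on which limit is used. Introns held 33 of the 37 (89.2%, exact 95% interval 74.6 to 97), compared with 46.1% of all peaks, and intergenic sequence held 3. The median distance to the start site was 320 kb, compared with 51.3 kb for all peaks. Within 10 kb of a start site lay 2 of the 37 peaks (5.41%), the Tgfa peak at 2.54 kb and the Nrg1 peak at 4.57 kb, compared with 20.9% of all peaks. Intervals here cover the counting of peaks only. Of the 37 peaks, 30 were at Nrg1, Nrg3 and Erbb4, which each span about a megabase. Position and distance were not compared with those of peaks at genes of like length.

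The peaks at the 10 genes had a median score of 13.9 (range 10.2 to 52.7) compared with 16.2 for all peaks. Of the 37, 11 (29.7%, exact 95% interval 15.9 to 47) reached the median of all peaks, compared with 50.1% of the list. The genes differed in this: 8 of the 17 Nrg1 peaks reached it, and 3 of the other 20. In the whole list the 8698 peaks over 100 kb from a start site had a median score of 16.6. In the top decile of scores (38.6 or more) were 4 of the 37 peaks (10.8%, compared with 10.1% of all peaks), 3 at Nrg1 and 1 at Egfr. The focus ratio, a measure of sharpness given by the caller, had a median of 0.804 at the 10 genes and 0.783 in all peaks.

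**Figure D3:**
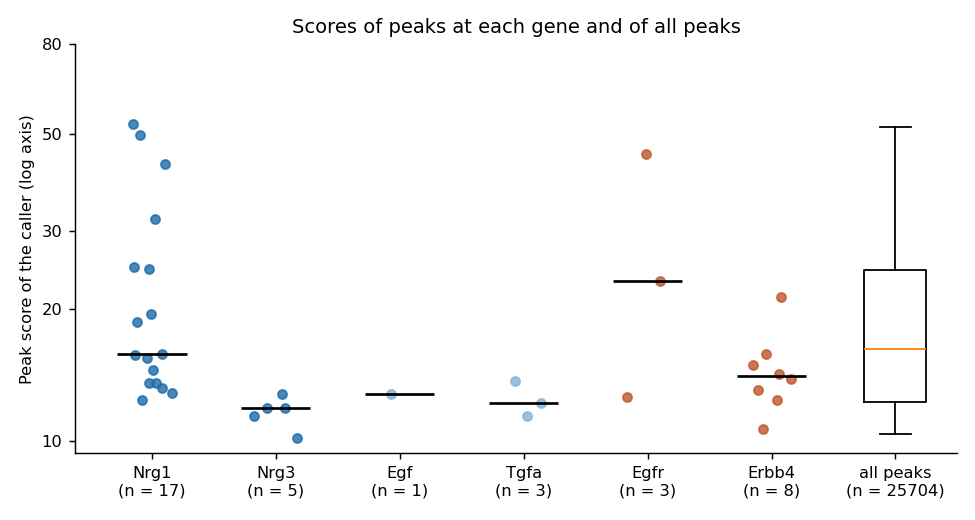
Caller score (log axis) of each peak at the 6 genes with a peak, with the gene's median as a bar, beside all 25704 peaks as a box (quartiles, whiskers at the 5th and 95th percentiles). Only Nrg1, Egfr and Erbb4 have peaks above the median of all peaks (16.2), and all Nrg3, Egf and Tgfa peaks lie below it.

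Most peaks at the 10 genes held the forkhead core. Of the 37 peaks 30 had it within 200 bp around the centre, or 81.1% (exact 95% interval 64.8 to 92), compared with 72.5% of all peaks. The flanking windows, placed 2000 bp away and as wide, held it in 18 of 74 cases (24.3%). In the flanks of all peaks the share with a core was lower, at 18.4%. The strict form GTAAACA was in 14 of the 37 peaks (37.8%, interval 22.5 to 55.2), compared with 27.4% of all peaks. More than 1 core was present in 13 of the 37 (35.1%, interval 20.2 to 52.5), compared with 21.3% of all peaks. Of these 13 peaks, 8 were at Nrg1. Of the 46 cores at the 10 genes, 30 (65.2%) lay within 20 bp of the peak centre, compared with 57.9% of the cores in all peaks. The share with a core was 12 of 17 at Nrg1 and 18 of 20 at the other genes.

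Other motifs were counted in the same windows, on both strands. The E-box CATCTG, recognised by helix-loop-helix proteins, was in 15 of the 37 peaks (40.5%, exact 95% interval 24.8 to 57.9), compared with 28% of all peaks. The E-box CAGCTG was in 6 (16.2%, compared with 18.7% of all peaks). The TEAD sequence GGAATG and the TALE sequence TGACAG were each in 6 peaks as well (16.2%, compared with 15.1% and 18% of all peaks). Sequences of factors that act downstream of receptor tyrosine kinases were not found in the 37 windows: neither the AP-1 sequence TGANTCA (N is any base; 5.78% of all peaks) nor the ETS sequence CCGGAA (3.16% of all peaks). A count of 0 of 37 allows up to 8.11%, which is above both shares of all peaks. In the 74 flanking windows of the same peaks the AP-1 sequence was found in 8 (10.8%) and the ETS sequence in 1 (1.35%). In the flanks of all peaks the shares were 5.9% and 1.8%. The AP-1 share of the 74 flanks lies above that limit and above the exact one of 9.49%. It rests on 8 windows, however, and the difference from the peaks was not tested.

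**Figure D4:**
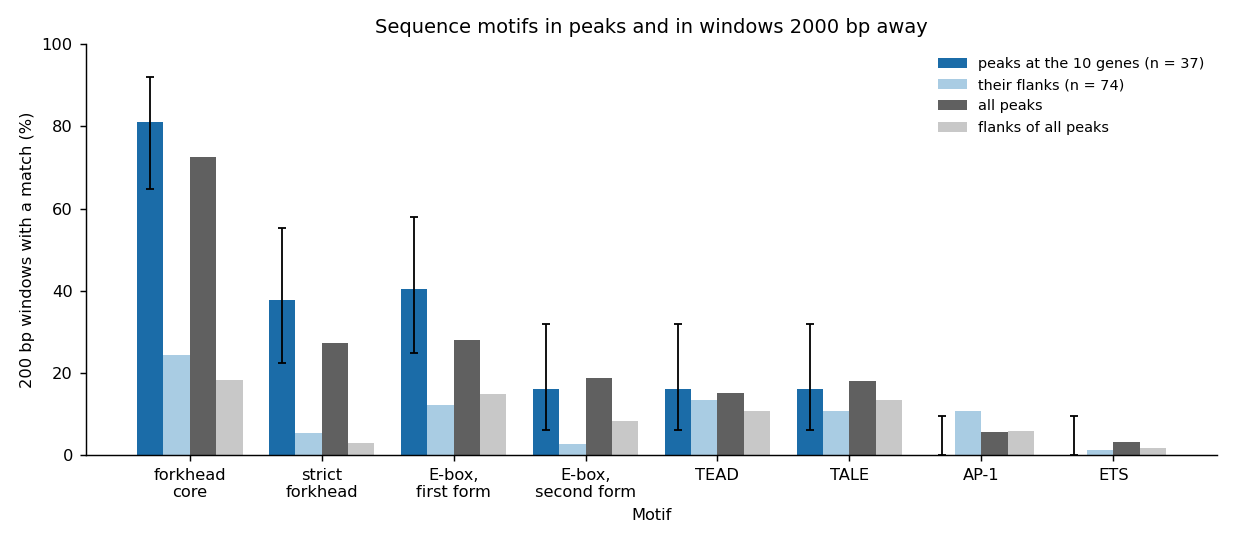
Share of 200 bp windows with each motif in the 37 peaks at the 10 genes (bars with exact 95% intervals), in their 74 flanking windows 2000 bp away, in all peaks and in the flanks of all peaks. The forkhead core stands at 81.1% of the 37 peaks and 24.3% of their flanks, and the intervals of the 37 peaks include the share of all peaks for every motif drawn.

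The wider pathway was read from a list of 58 further genes, of which 35 (60.3%) had a peak, compared with 37.3% of all protein-coding genes and a mean of 49.7% for genes of like territory. Feedback inhibitors held 86 of the 162 peaks, the most of any role. Their territories were also long, with a median of 186 kb compared with 96.2 kb for the 58 genes. The number of peaks in this role was not set against its territory. Of the 13 inhibitor genes, 11 had a peak (84.6%, compared with 64.6% for genes of like territory). The list was chosen with earlier results of these data known, and the difference was not tested. Lrig1, which promotes the degradation of ErbB receptors, had 22 peaks, or 7.13 per 100 kb, and its relative Lrig3 had 20. By position, only 7 peaks lay inside the span of Lrig1 and 2 inside that of Lrig3. In the decile of territory that both share, 2.78% of genes had at least as many as Lrig1 and 3.92% at least as many as Lrig3. Cblb, a ubiquitin ligase for activated receptors, had 11. Spred2, a membrane inhibitor of the Ras-ERK pathway, had 7, with a peak at a score of 92 (rank 219) in intergenic sequence upstream. In the same decile 16.2% of genes had at least as many as Cblb and 31.7% at least as many as Spred2. Inside the spans of Cblb and Spred2 lay 3 and 2 peaks. No peak was found at Cbl or Socs4.

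Of the 5 remaining ligand genes, 2 had a peak (40%, compared with 54.1% for genes of like territory). Nrg4 and Epgn had 1 each, and Nrg2, Btc and Ereg had none, although 2 peaks lay inside the span of Nrg2 nearer to the start site of another gene. Of the 4 genes for sheddases and their trafficking partners, 2 had a peak (50%, compared with 30.2% for genes of like territory). Adam10 had a promoter peak at a score of 15.4 and Rhbdf2 an intronic one at 23.4, whereas Adam17 and Rhbdf1 had none.

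Inside the cell, peaks were found at 4 of 10 adaptor genes (40%, compared with 46.9% for genes of like territory). The counts were 6 of 12 Ras-ERK genes (50%, compared with 40.3%) and 6 of 8 PI3K-AKT genes (75%, compared with 50.9%). Nck2, an adaptor gene, had 5 peaks and Gab1, a docking protein gene, had 3, while Sos2 and Nck1 had 1 each. In their deciles of territory, 20.1% of genes had at least as many as Nck2 and 18% at least as many as Gab1. Among the Ras-ERK genes Dusp6, the phosphatase that inactivates ERK, had 9, and Braf, Ksr1, Map2k2 and Mapk3 had 1 each. At least as many as Dusp6 were found at 22.4% of the genes in its decile. Pik3ca and Pik3r1, the catalytic and regulatory subunits of PI3K, had 6 each, a count reached by 0.82% and 37.3% of the genes in their deciles. The Pik3ca promoter held the highest-scored peak of the whole pathway list, at 123.8 (rank 67; 32397045 to 32397257 on chromosome 3). Of the 6 early response genes, 4 had a peak (66.7%, compared with 48.8% for genes of like territory). Myc had 12, Jun 4, Fos 3 and Ier3 2, and Egr1 and Elk1 had none. These counts were reached by 13.8% (Myc), 51.1% (Jun), 18% (Fos) and 9.76% (Ier3) of the genes in the same decile. Per 100 kb of territory, Myc had 0.831 peaks, and none lay inside its span.

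**Figure D5:**
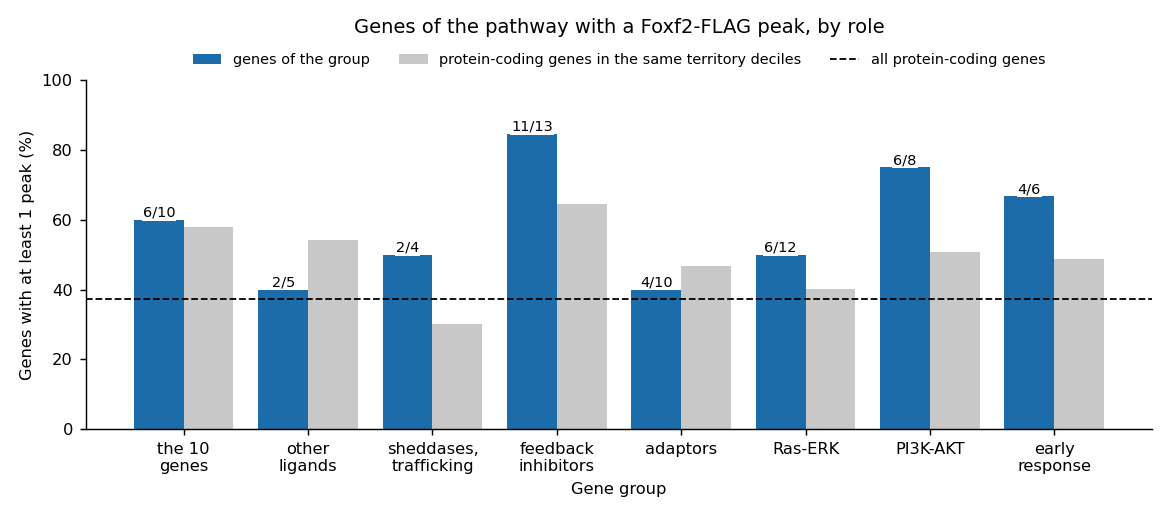
Share of genes with at least 1 Foxf2-FLAG peak in the 10 genes and in each role group of the wider list (counts above the bars), beside the mean share among protein-coding genes in the same deciles of territory and the share of all protein-coding genes (dashed line, 37.3%). The 10 genes stand at 60% beside 58% for genes of like territory, and the feedback inhibitors at 84.6% beside 64.6%. The gene lists were chosen with earlier results of these data known, and no difference was tested.

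The counts depended on how peaks were assigned to genes. When start sites of every gene type were used, 30 of the 37 peaks were nearer to another start site, and 7 peaks at 2 genes (5 at Nrg1 and 2 at Tgfa) were left. The nearer start sites were those of small RNA genes, antisense and other noncoding genes, pseudogenes and unclassified entries, and a single small nuclear RNA gene, Gm22140, took 10 of the Nrg1 peaks. By position inside the gene span the counts were 17 at Nrg1, 7 at Erbb4, 5 at Nrg3, 3 at Tgfa and 1 at Egfr.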

How the data were processed

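Foxf2-FLAG ChIP-seq was done with 2 FLAG ChIP libraries and 1 input library from E12.5 tongues. Per the submitters' processing notes, Bowtie2 2.4.1, SAMtools 1.7.1 and HOMER were used. The series' design text names Bowtie2 as the aligner (mm10) and HOMER as the peak caller, run against the input. The sources used here do not give the caller settings, the depth or whether the libraries were pooled. The authors deposited 1 table of 25707 peaks, each 212 bp wide (end minus start), with a caller score of unstated scale, used here only to rank and describe. The last deposited column holds a fraction for each peak and was read as the focus ratio.

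Coordinates were used as deposited, with GRCm38 sequence and the basic transcript set of GENCODE M21. Left out were 3 peaks on a contig. The nearest start site was sought among all basic transcripts of protein-coding genes. Motifs were searched on both strands of the central 200 bp. Promoters were 1000 bp upstream to 100 bp downstream of a start site, followed in order by coding exon, other exon, intron and intergenic sequence. Territories were grouped in 10 deciles. Shares carry exact Clopper-Pearson intervals at 95%, and a count of 0 allows 3 counts of the total. No test was run, since the table has no value for a single library.

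The 10 genes, the wider pathway list and the motifs were chosen with earlier results of these data known. All 10 genes were named, with their highest-scored peak, their peak nearest to a start site, any exon peak, and every peak of a gene with 5 or fewer. From the wider list all other ligand genes were named, and for each role at most 4 genes, ranked by peak count; a few of these are not reported here. Genes with no peak, genes tied at 1 peak, the run of Nrg1 peaks and the paired core forms were chosen after their values were seen. The search for the nearest start site, the territory length and the motif search were tested on simulated data. Sequences were read with pysam 0.24.0, intervals computed with scipy 1.17.1, tables handled with pandas 2.3.3 and numpy 2.4.6 and plots drawn with matplotlib 3.10.9, under Python 3.11.15.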

Additional observations from a re-analysis of the deposited data

How the results depend on the processing

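The number of genes with a peak, 6 as reported, was 3 with only peaks at or above the median score, 2 with start sites of every gene type and 2 with peaks within 10 kb of a start site. The number of peaks, 37 as reported, was 11 at or above the median score, 7 with start sites of every gene type, 12 within 100 kb and 2 within 10 kb. The share with a forkhead core, 81.1% as reported, was 100% for the 12 peaks within 100 kb and 37.8% with the strict form GTAAACA; under the other alternatives it stayed between 78.4% and 90.9%. The median score stayed between 13.3 and 14.5. No promoter peak appeared under the alternatives tried, including a promoter of 2000 bp upstream to 500 bp downstream. With peaks inside the gene span, 5 genes and 33 peaks remained near the reported counts. No paired analysis was possible because the table has no value for a single library, and no library could be left out for the same reason. The unknown depth limits what a gene without a peak can show.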

Other observations

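The 7 peaks at the 10 genes without a forkhead core, 5 at Nrg1 and 2 at Erbb4, had a median score of 14.5, compared with 13.65 for the 30 peaks with a core; in the whole list the medians were 14.4 without and 17.1 with a core. Either E-box (CATCTG or CAGCTG) was present in 6 of these 7 peaks, compared with 45.2% of all peaks without a core. A close relative of the core, TCTAAACA or TGTTTAAA, was present in 3 of the 7, compared with 15% of all peaks without a core. Both counts were made after the sequences had been seen, rest on 7 peaks, and were not tested.

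Of the 6 pairs of adjacent peaks within 5.5 kb of each other at the 10 genes, 5 were at Nrg1 and 1 was the upstream pair of Egfr. The median distance to another peak was 5.17 kb at Nrg1 and 21 kb at the 10 genes, compared with 17.1 kb for all peaks. The Nrg1 pairs include peaks of the run that was picked out after its positions were seen. Such pairs were not counted in the whole list, and the difference was not tested. The closest pair, at 1.67 kb, joined the strongest Nrg1 peak (52.7) to one scored 15.7.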
